A study of Rattus norvegicus with 9 samples.

Results

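Chemokines and their receptors were read out in knee tissue of wild-type male Lewis rats aged 10 to 12 weeks, as 46 genes of the 17602 in the expression table. A gene entered when its symbol was that of a CC, CXC, CX3C or C chemokine ligand or a signaling receptor of one, and when it was above 0 TPM (transcripts per 1000000, a level scaled for gene length and for the total of the library) in 3 or more of the 9 libraries. There were 49 such symbols. Ccl17, Ccl25 and Ccr8 were each above 0 TPM in 2 libraries and were left out, which leaves 29 ligands and 17 receptors, and the same filter kept 16512 genes of all kinds for testing.

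The 3 groups held 3 libraries each. The intact group had no surgery, and the synovium around its medial meniscus was taken. Sham surgery entered the knee through its capsule and went no further, and the same synovium was taken 1 week later. In the pMx group (partial meniscectomy) the front portion of the medial meniscus was excised on both sides after its tibial attachment had been severed, and the regenerating tissue at that site was taken after 1 week, with the synovium around it removed. The pMx group therefore differed from both other groups in the operation and in the tissue sampled, and these cannot be told apart. The labels call the libraries biological replicates, and no source used here says which animals or knees went into each, so the p-values measure the spread between these libraries.

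Chemokines are small secreted proteins that guide the migration of leukocytes and other cells along gradients, and most act through G protein-coupled receptors on the migrating cell. Inflammatory chemokines are induced in injured tissue and recruit monocytes, neutrophils and other leukocytes, whereas homeostatic chemokines position cells in resting tissue and lymphoid organs. Atypical receptors bind chemokines without the usual G protein signal and remove them. In the knee, synovial fibroblasts, macrophages and endothelium are known sources of chemokines.

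Each library sums to 1000000 TPM, the read depth is unknown, and within-group correlations across genes ran from 0.954 to 0.996. Intact replicate 3 stood apart on the second principal component (21.2% of the variance) and held a summed 40038 TPM of 8 skeletal muscle markers, against 64.7 to 2733 TPM in the other 8 libraries. The summed level of the 6 synovial lining fibroblast markers, the check on the labelled tissue, was 4799.9 ± 690.3 TPM (SD, n = 3) in intact synovium, 2634 ± 409.7 TPM after sham surgery and 1708 ± 379.7 TPM in regenerating tissue.

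Chemokine ligands were abundant in synovium with and without sham surgery and lower in sum in regenerating tissue, while the receptor transcripts had their highest sum there. The 29 ligands summed to 1094 ± 150.2 TPM (SD, n = 3) in intact synovium, 1107 ± 33.9 TPM after sham surgery and 514 ± 39.7 TPM in regenerating tissue. The 17 receptors summed to 71.1 ± 21.6, 113 ± 9.3 and 133 ± 5.71 TPM in the same order. In bulk tissue such as this, fewer cells of a type and less RNA per cell cannot be told apart. By mean level the first ligand was Cxcl12 in intact synovium, Ccl21 after sham surgery and Ccl2 in regenerating tissue, and the first receptor was Cx3cr1 in the intact group and Cxcr4 in both operated groups. Of the 46 genes, 35 were above 0 TPM in all 9 libraries, 22 reached a mean of 10 TPM in at least 1 group, and 16 had a mean below 1 TPM over the 9 libraries.

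The make-up of the ligand pool differed between the groups. Inflammatory CC ligands (Ccl2, Ccl3, Ccl4, Ccl5, Ccl6, Ccl7, Ccl9 and Ccl12) held 15.3% ± 0.819 (SD, n = 3) of ligand TPM in intact synovium, 31.2% ± 5.55 after sham surgery and 55.9% ± 3.93 in regenerating tissue. The lymphoid and epithelial CC ligands, carried by Ccl21 and Ccl19, held 19.7% ± 5.23, 26.7% ± 2.47 and 4.65% ± 1.79. The eosinophil and type 2 ligands, carried by Ccl11 and Ccl24, held 8.05% ± 0.766, 3.37% ± 0.332 and 0.505% ± 0.0574. These shares are a description without a test. In summed TPM the inflammatory CC ligands stood at 345 ± 62.1 after sham surgery and 287 ± 24.7 in regenerating tissue, so their larger share in the latter came with a smaller sum of the other ligands.

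**Figure D1:**
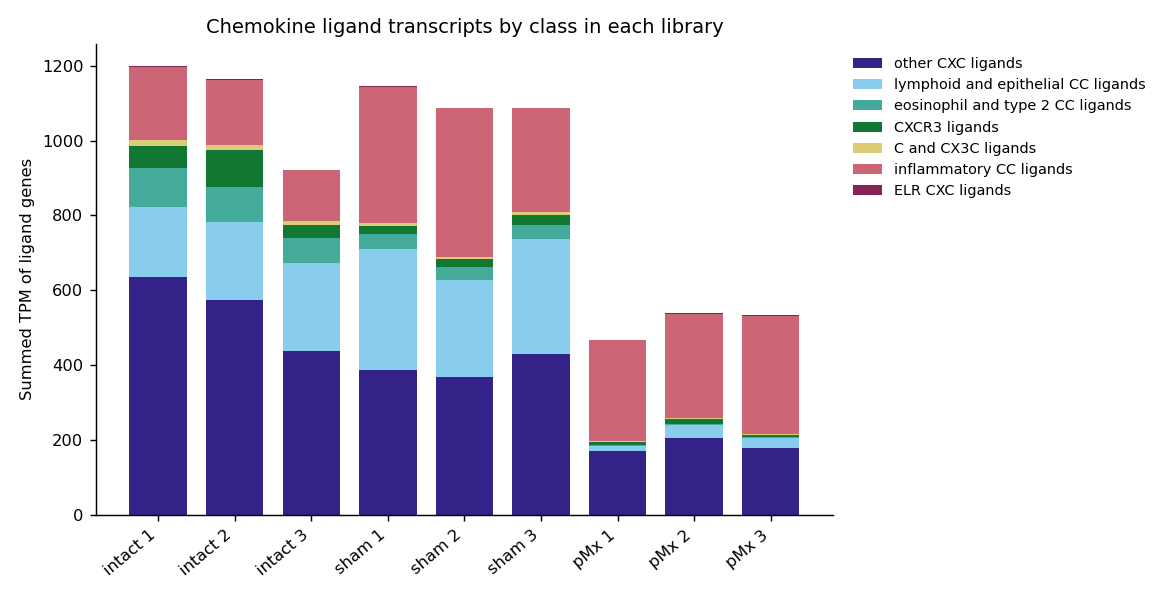
Summed TPM of the 29 chemokine ligand genes in each of the 9 libraries, as bars stacked by ligand class, with the libraries along the horizontal axis. The pMx libraries total 468 to 539 TPM and the others 922 to 1198 TPM, and the inflammatory CC class takes the largest part of each pMx bar.

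The 3 questions that follow from the design are how regenerating tissue differed from sham synovium, what sham surgery alone did to synovium, and how regenerating tissue differed from intact synovium. A gene was called a differentially expressed gene (DEG) when its Benjamini-Hochberg adjusted p in limma, over all 16512 genes, was below 0.05 and its log2 fold change on log2(TPM + 1) exceeded 1 in size; this scale understates the change of genes at a few TPM. For pMx versus sham, 3 of the 46 genes were DEGs with higher levels, against 3.36% of all genes, and 10 were DEGs with lower levels, against 4.85%. For sham versus intact, 5 were higher, against 1.42%, and 1 was lower, against 0.533%. For pMx versus intact, 6 were higher, against 6.40%, and 12 were lower, against 7.89%. By adjusted p alone the higher and lower counts were 4 (17.7% of all genes) and 16 (18.9%) for pMx versus sham, 12 (6.73%) and 2 (5.97%) for sham versus intact, and 16 (23.4%) and 14 (27.1%) for pMx versus intact. The median log2 fold change of the 46 genes was -0.13 for pMx versus sham, 0.10 for sham versus intact and 0.04 for pMx versus intact, beside -0.01, -0.02 and -0.03 over all genes tested. In all, 19 genes were DEGs in at least 1 comparison and 27 in none. Without overlap between libraries, 7 of the 46 genes were higher for pMx versus sham, against 27.0% of all genes, and 18 were lower, against 29.0%. For sham versus intact these counts were 14 (14.2%) and 6 (16.4%), and for pMx versus intact 16 (26.9%) and 14 (30.6%). The comparisons share groups (the sham libraries serve in 2 and the intact libraries in 2), so their calls are not independent of each other.

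**Figure D2:**
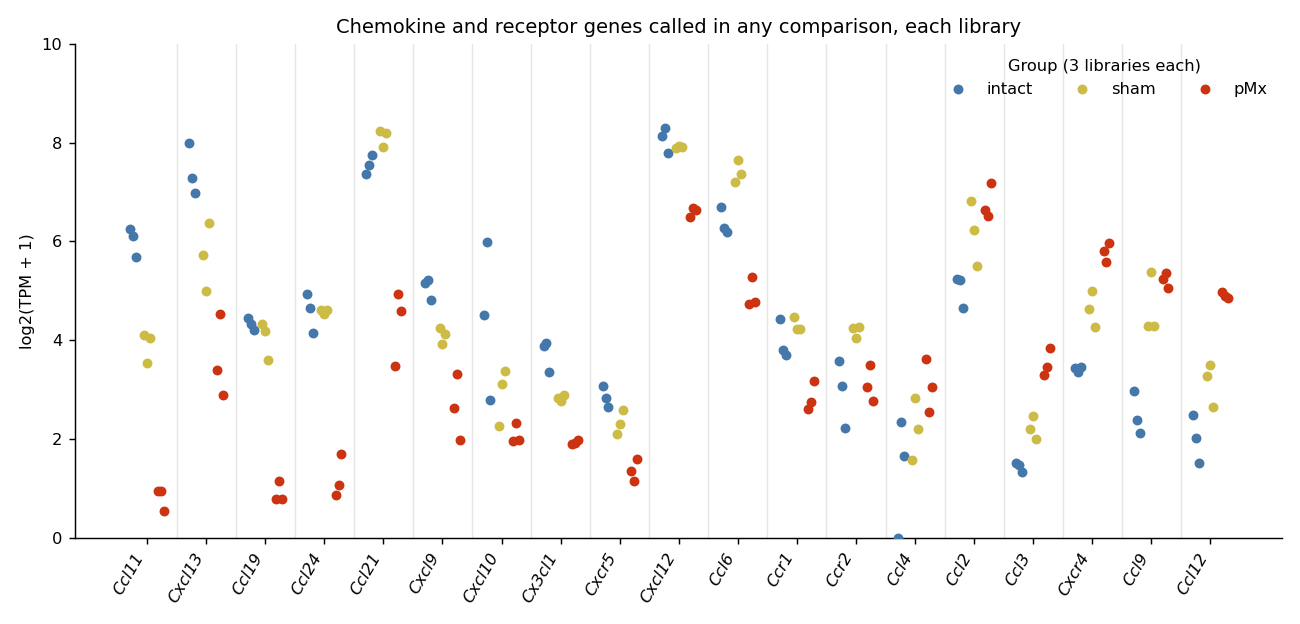
Level of each of the 19 DEGs on log2(TPM + 1), with 1 point per library and 3 libraries per group, ordered by the log2 fold change of pMx versus intact from lowest (left) to highest (right). The pMx points lie below all intact points for the 12 genes at the left and above them for the 6 genes at the right, and for Ccr2 between them the intact and pMx points overlap. Those 12 and 6 genes were picked as DEGs of that comparison. Of all genes tested, 30.6% lay lower and 26.9% higher in pMx than in intact without overlap.

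The inflammatory CC ligands were the one ligand class with DEGs of higher level in regenerating tissue than in sham synovium. Of its 8 genes, 2 were higher (Ccl12 and Ccl3), 1 was lower (Ccl6) and 5 were not called, with a median log2 fold change of 0.58. For sham versus intact 3 were higher in limma and none lower, also at an unadjusted p below 0.05 (median 0.94), and for pMx versus intact 5 were higher and 1 lower (median 1.74). This class includes the monocyte chemoattractants that act on Ccr2 and the macrophage inflammatory proteins that act on Ccr1 and other receptors.

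Ccl12, a monocyte chemoattractant that acts on Ccr2, was at 4.55, 3.04 and 1.86 TPM in intact synovium, 8.7, 10.3 and 5.21 TPM after sham surgery and 30.3, 28.7 and 27.7 TPM in regenerating tissue. No library of any group overlapped with another group, and the order was intact, sham, pMx. It rose by 1.77 ± 0.27 (SE) on the log2 scale from sham to pMx (adjusted p = 0.00126, a 3.59-fold higher mean) and by 1.14 ± 0.27 from intact to sham (adjusted p = 0.0311). The first rise was called under every alternative, and the second was lost when the 6 libraries of the comparison were fitted alone and without any 1 library other than intact replicate 1 or sham replicate 3. Ccl3, a ligand of Ccr1, was at 1.83, 1.77 and 1.5 TPM in intact synovium, 3.61, 4.48 and 3 TPM after sham surgery and 8.78, 9.92 and 13.3 TPM in regenerating tissue. Its groups were also ordered without overlap, and it rose by 1.31 ± 0.17 from sham to pMx (adjusted p = 0.000518). From intact to sham its log2 fold change was 0.79 ± 0.17 (adjusted p = 0.0216), short of the fold threshold.

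Ccl9, a Ccr1 ligand, was at 6.83, 4.22 and 3.32 TPM in intact synovium, 18.4, 40.9 and 18.5 TPM after sham surgery and 36.6, 40.2 and 32.1 TPM in regenerating tissue. Its sham and pMx libraries overlapped while all intact libraries lay below both. It rose by 2.16 ± 0.32 (SE) on the log2 scale from intact to sham (adjusted p = 0.00673), the largest higher call among the 46 genes in that comparison, and its pMx versus sham difference was 0.57 ± 0.32 (adjusted p = 0.205, 95% interval -0.16 to 1.30). Ccl2, a major monocyte chemoattractant, was at 36.9, 36.3 and 24.2 TPM in intact synovium, 111, 74.4 and 44.4 TPM after sham surgery and 99.1, 91.1 and 144 TPM in regenerating tissue, with sham and pMx overlapping and intact below both. It rose from intact to pMx, by 1.74 ± 0.33 (adjusted p = 0.0022), while sham versus intact gave 1.14 ± 0.33 with an adjusted p of 0.0541, which became a call without sham replicate 3 and with a minimum mean of 1 TPM, median-of-ratios rescaling or quantile normalization. Its pMx versus sham difference was 0.60 ± 0.33 (95% interval -0.14 to 1.34). Ccl4, another macrophage inflammatory protein, was at 0, 4.08 and 2.16 TPM in intact synovium, 1.97, 6.06 and 3.59 TPM after sham surgery and 11.2, 4.83 and 7.25 TPM in regenerating tissue, with the intact and sham ranges overlapping. Its rise of 1.73 ± 0.59 from intact to pMx (adjusted p = 0.0359) was lost without intact replicate 1, sham replicate 3, pMx replicate 1 or pMx replicate 3, with a pseudocount of 0.1 or 0.01, with robust variances and on the 6 libraries of the comparison.

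Ccl6, which also acts on Ccr1, went the other way in regenerating tissue. It was at 103, 76.2 and 72.5 TPM in intact synovium, 146, 200.5 and 165 TPM after sham surgery and 25.6, 37.7 and 26.5 TPM in regenerating tissue. Every sham library was above every intact library and every pMx library was below both. It rose by 1.02 ± 0.19 (SE) on the log2 scale from intact to sham (adjusted p = 0.0141) and fell from sham to pMx, where the log2 fold change was -2.48 ± 0.19 (adjusted p = 5.11e-05, a 5.69-fold lower mean). The rise was lost without intact replicate 2, intact replicate 3 or sham replicate 2, and the fall was called under every alternative. The other 2 genes of the class were not called in any comparison. Ccl7 had group means of 36.8 ± 6.06, 54 ± 17.5 and 60.5 ± 4.78 TPM (SD, n = 3), with a pMx versus sham difference of 0.21 ± 0.23 and a 95% interval of -0.31 to 0.74. Ccl5, a lymphocyte and monocyte attractant, had means of 3.58 ± 2.27, 2.61 ± 0.465 and 1.52 ± 0.404 TPM.

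These CC ligand genes lie side by side on chromosome 10 of the rat assembly GRCr8, where the protein-coding neighbours run Ccl2, Ccl7, Ccl11, Ccl12 in one group and Ccl5, Ccl9, Ccl6, Ccl3, Ccl4 in another. Within the first group Ccl11 fell while its neighbour Ccl12 rose: the Ccl12 to Ccl11 ratio of TPM was 0.0472 ± 0.0119 (SD, n = 3) in intact synovium, 0.614 ± 0.326 after sham surgery and 42.2 ± 16.8 in regenerating tissue. Within the second group Ccl6 fell from sham to pMx, its neighbour Ccl3 rose, and Ccl9 was not called. The Ccl9 to Ccl6 ratio was 0.0558 ± 0.0103, 0.147 ± 0.0495 and 1.24 ± 0.185 in the same order. The Cxcl11, Cxcl10 and Cxcl9 genes, neighbours on chromosome 14, had their lowest means in the pMx group in all 3 cases. Reads shared between close paralogs could not be assessed from TPM, so values of similar CC ligands are uncertain to that extent.

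**Figure D3:**
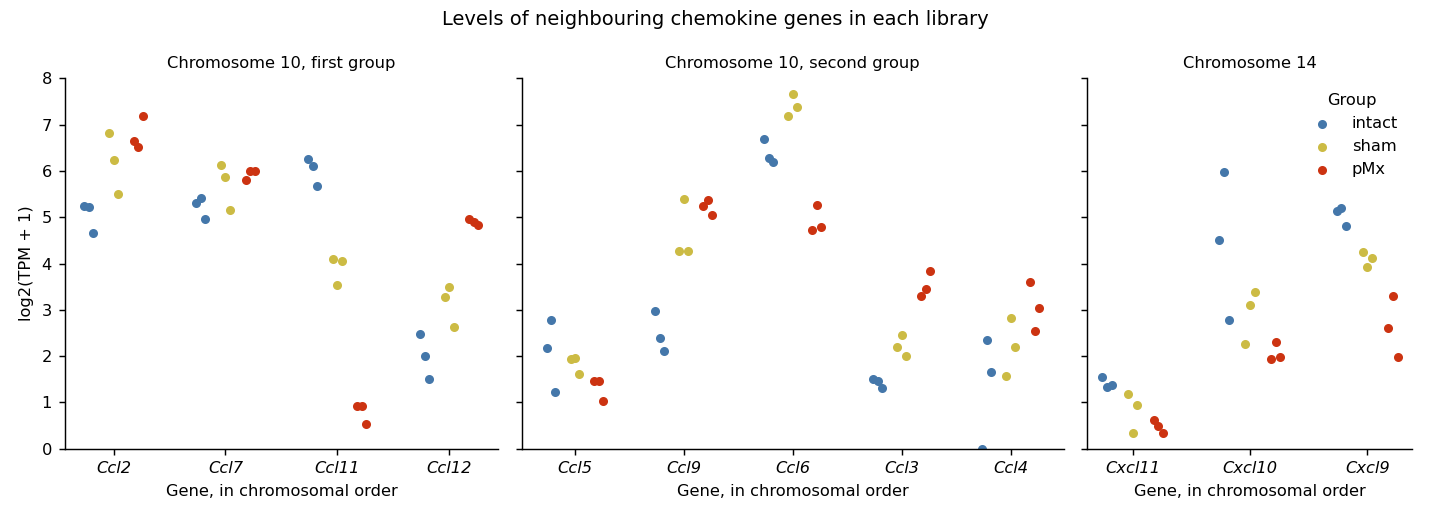
Levels on log2(TPM + 1) of neighbouring chemokine genes, with genes in chromosomal order along the horizontal axis, 1 point per library and colors for the 3 groups. Ccl11 drops to below 1 TPM in the pMx libraries while Ccl12 beside it reaches 27.7 to 30.3 TPM, and Ccl6 stands at 25.6 to 37.7 TPM in pMx against 146 to 200.5 TPM in sham.

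Promoter windows are shown for genes on which these contrasts turn: Ccl12, the gene with the largest rise from sham to pMx; Ccl9 and Ccl6, neighbours whose levels parted in regenerating tissue; the pair Cxcr4 and Cxcl12, described further on, which moved in opposite directions; and Cxcl1, which stayed near the floor. Each window holds the 250 bases before the annotated start, 5′ to 3′ on the strand of the gene, from RefSeq on GRCr8. The windows are chr10:67567626-67567875 (plus strand) for Ccl12, chr10:68868878-68869127 (minus strand) for Ccl9, chr10:68883367-68883616 (minus strand) for Ccl6, chr13:42634289-42634538 (minus strand) for Cxcr4, chr4:152060531-152060780 (plus strand) for Cxcl12 and chr14:17479322-17479571 (minus strand) for Cxcl1. Capitals mark TATAAA on either strand and matches to the NF-kB consensus on either strand.
Ccl12: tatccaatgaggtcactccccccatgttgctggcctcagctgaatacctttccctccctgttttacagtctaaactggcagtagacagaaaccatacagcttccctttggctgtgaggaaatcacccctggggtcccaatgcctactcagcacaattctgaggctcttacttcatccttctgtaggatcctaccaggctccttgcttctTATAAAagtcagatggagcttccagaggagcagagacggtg
Ccl9: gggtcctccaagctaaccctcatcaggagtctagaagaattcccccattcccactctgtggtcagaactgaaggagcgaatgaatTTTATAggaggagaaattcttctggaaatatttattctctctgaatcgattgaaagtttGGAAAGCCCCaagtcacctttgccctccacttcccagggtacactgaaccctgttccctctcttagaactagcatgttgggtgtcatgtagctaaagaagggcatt
Ccl6: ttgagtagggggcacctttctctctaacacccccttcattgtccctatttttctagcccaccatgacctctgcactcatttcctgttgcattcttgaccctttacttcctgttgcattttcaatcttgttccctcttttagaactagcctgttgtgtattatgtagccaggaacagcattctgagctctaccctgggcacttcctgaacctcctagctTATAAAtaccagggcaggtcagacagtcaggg
Cxcr4: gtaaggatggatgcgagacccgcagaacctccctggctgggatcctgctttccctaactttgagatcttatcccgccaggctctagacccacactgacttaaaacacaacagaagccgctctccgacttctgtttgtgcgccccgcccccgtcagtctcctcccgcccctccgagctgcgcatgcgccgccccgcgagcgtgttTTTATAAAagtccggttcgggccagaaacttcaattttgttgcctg
Cxcl12: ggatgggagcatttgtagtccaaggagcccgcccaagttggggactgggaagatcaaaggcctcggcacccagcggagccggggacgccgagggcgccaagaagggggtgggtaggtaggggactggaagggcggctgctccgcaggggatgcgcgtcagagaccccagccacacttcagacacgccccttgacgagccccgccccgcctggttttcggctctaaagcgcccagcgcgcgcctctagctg
Cxcl1: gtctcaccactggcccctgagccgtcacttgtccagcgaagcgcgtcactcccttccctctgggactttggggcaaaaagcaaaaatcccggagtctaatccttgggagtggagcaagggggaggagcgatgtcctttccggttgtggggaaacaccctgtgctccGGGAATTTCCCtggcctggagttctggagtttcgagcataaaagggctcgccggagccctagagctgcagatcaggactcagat

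A window was found for 34 of the 46 genes, and the genes without one included Ccl2, Ccl3, Ccl4, Ccl5, Ccl11, Cxcl3, Ccr4, Ccr7, Ccr9, Ccr10 and Cxcr5. TATAAA occurred in 10 of the 34 windows and in 12.9% of all 33469 windows of this length. The 10 were Ccl6, Ccl7, Ccl9, Ccl12, Ccl24, Cx3cl1, Cxcl10, Cxcl11, Cxcl13 and Cxcr4, which include genes called higher and genes called lower in regenerating tissue. In the printed windows it begins 41 bases before the start in Ccl12, 32 in Ccl6 and 44 in Cxcr4, where the match on the other strand overlaps it. In Ccl9 it is 165 bases away on the other strand, and the Cxcl12 window holds neither motif. The NF-kB consensus begins 106 bases before the start in Ccl9 and 84 in Cxcl1, where matches on both strands overlap. It occurred in 8 of 34 windows (Ccl9, Ccl20, Ccr3, Cxcl1, Cxcl2, Cxcl6, Cxcl10 and Cxcl11) and in 3.54% of all windows. The 2 motifs share no base in the printed windows, and a match of letters is a description of the window only.

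The lymphoid ligands Ccl21 and Ccl19 fell in regenerating tissue, and on log2(TPM + 1) Ccl21 had the largest difference of the 46 genes between the sham and pMx groups, although its sham to pMx ratio of mean TPM, 13.2, was below those of Ccl11 (18.7), Ccl19 (18.1) and Ccl24 (16.6). Ccl21, which guides dendritic cells and T cells into lymphatic vessels through Ccr7, was at 164, 186 and 216 TPM in intact synovium, 302, 240.1 and 292 TPM after sham surgery and 10.1, 29.8 and 23.1 TPM in regenerating tissue. Its pMx libraries lay far below those of both other groups, with a 13.2-fold lower mean than sham and a log2 fold change of -3.78 ± 0.32 (SE, adjusted p = 8.21e-05). Ccl19, the other Ccr7 ligand, was at 20.9, 18.9 and 17.4 TPM in intact synovium, 19.1, 17.2 and 11.2 TPM after sham surgery and 0.71, 1.2 and 0.71 TPM in regenerating tissue, and fell likewise from sham to pMx (-3.15 ± 0.19 on the log2 scale, adjusted p = 2.63e-05). Neither was called for sham versus intact, where the differences were 0.56 ± 0.32 for Ccl21 and -0.28 ± 0.19 for Ccl19 (adjusted p = 0.298 and 0.386). Ccr7 itself had means of 0.447 ± 0.297, 0.523 ± 0.379 and 1.63 ± 0.889 TPM (SD, n = 3) and was not called in any comparison, with a log2 difference between pMx and sham of 0.76 ± 0.27 (adjusted p = 0.0527). The other genes of this class, Ccl20 and Ccl27, had group means between 0.263 and 2.36 TPM and were not called.

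Of 4 markers of lymphatic endothelium, 2 were called lower for pMx versus sham together with Ccl21, against 4.85% of all genes. The 4 markers (Prox1, Flt4, Lyve1 and Mmrn1) summed to 41.4 to 44.2 TPM over the intact libraries, 35 to 48.4 TPM over the sham libraries and 8.39 to 10.6 TPM over the pMx libraries. The 2 called were Lyve1 and Mmrn1, and the pMx libraries held 0.22, 0.53 and 0.5 TPM of Mmrn1 and 0.06, 0.14 and 0 TPM of Prox1. Flt4 was not called, with means of 5.9 ± 0.424 TPM (SD, n = 3) in sham and 5.55 ± 0.216 TPM in pMx and a log2 difference of -0.07 ± 0.13 (adjusted p = 0.712). All 7 adipocyte markers were called lower for pMx versus sham as well, against the same 4.85% of all genes, with sums of 4499 to 4977 TPM in sham and 305 to 484 TPM in pMx. The part of these cells in the levels of Ccl21 and Ccl19 was not tested.

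Cxcl13, which attracts B cells through Cxcr5, was at 252, 155 and 125 TPM in intact synovium, 51.6, 30.8 and 81.7 TPM after sham surgery and 9.52, 22.1 and 6.37 TPM in regenerating tissue. The 3 groups did not overlap, with intact highest and pMx lowest. Its log2 fold change was -2.09 ± 0.48 (SE) for pMx versus sham (adjusted p = 0.00969) and -3.81 ± 0.48 for pMx versus intact (adjusted p = 0.000244), both calls of lower level. For sham versus intact it was -1.72 ± 0.48 with an adjusted p of 0.051, just above 0.05. Without intact replicate 3, sham replicate 3 or pMx replicate 2, and with a minimum mean of 1 TPM, median-of-ratios rescaling or quantile normalization, this became a call. Its receptor Cxcr5 was at 7.35, 6.08 and 5.25 TPM in intact synovium, 3.27, 3.94 and 4.97 TPM after sham surgery and 1.54, 1.22 and 2.03 TPM in regenerating tissue. Its groups did not overlap either. Cxcr5 fell from intact to pMx (-1.48 ± 0.17 on the log2 scale, adjusted p = 0.000158), and its pMx versus sham difference of -0.96 ± 0.17 passed the adjusted p (0.00289) but not the fold threshold. The 7 B cell markers summed to 13 to 30.2, 11.2 to 14.7 and 3.98 to 4.77 TPM over the libraries of the intact, sham and pMx groups. Of the 7, 1 was called lower for pMx versus sham (Cd79a), against 4.85% of all genes, and 4 for pMx versus intact, against 7.89%. The part of B cells in the result was not tested.

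Cxcl12, the homeostatic ligand that retains and recruits progenitor cells and leukocytes, was the most abundant of the 46 genes over the 9 libraries and was at 281, 313 and 219 TPM in intact synovium, 236, 243 and 240.3 TPM after sham surgery and 88.7, 101 and 99 TPM in regenerating tissue. The intact and sham libraries overlapped and all pMx libraries were lower, with a log2 fold change of -1.31 ± 0.12 (SE) for pMx versus sham (adjusted p = 0.000108). Its receptor Cxcr4, carried by leukocytes and migrating progenitors, was at 9.8, 9.21 and 9.98 TPM in intact synovium, 23.6, 30.8 and 18.3 TPM after sham surgery and 54.8, 47 and 62 TPM in regenerating tissue. Cxcr4 showed the reverse order with no overlap between groups. It rose by 1.21 ± 0.17 from intact to sham (adjusted p = 0.00594) and by 1.16 ± 0.17 from sham to pMx (adjusted p = 0.00107), although the second rise was 0.98 without sham replicate 3, under the fold threshold. The Cxcr4 to Cxcl12 ratio of TPM went from 0.0366 ± 0.00817 (SD, n = 3) in intact synovium to 0.101 ± 0.0253 after sham surgery and 0.569 ± 0.0914 in regenerating tissue.

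The other CXC ligands outside the neutrophil and Cxcr3 classes were not called. Cxcl14, a ligand made in epithelium and connective tissue, had means of 68.7 ± 4.34, 66.5 ± 8.82 and 39.9 ± 6.08 TPM (SD, n = 3) and passed the adjusted p for pMx versus sham (-0.72 ± 0.12 on the log2 scale, adjusted p = 0.00215) but not the fold threshold. Cxcl16, the ligand of Cxcr6, had means of 31.2 ± 5.04, 34.5 ± 2.28 and 36 ± 0.863 TPM, and the 95% interval of its log2 difference between pMx and sham ran from -0.19 to 0.31. Cxcl17 was at 0 TPM in 5 of 9 libraries.

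**Figure D4:**
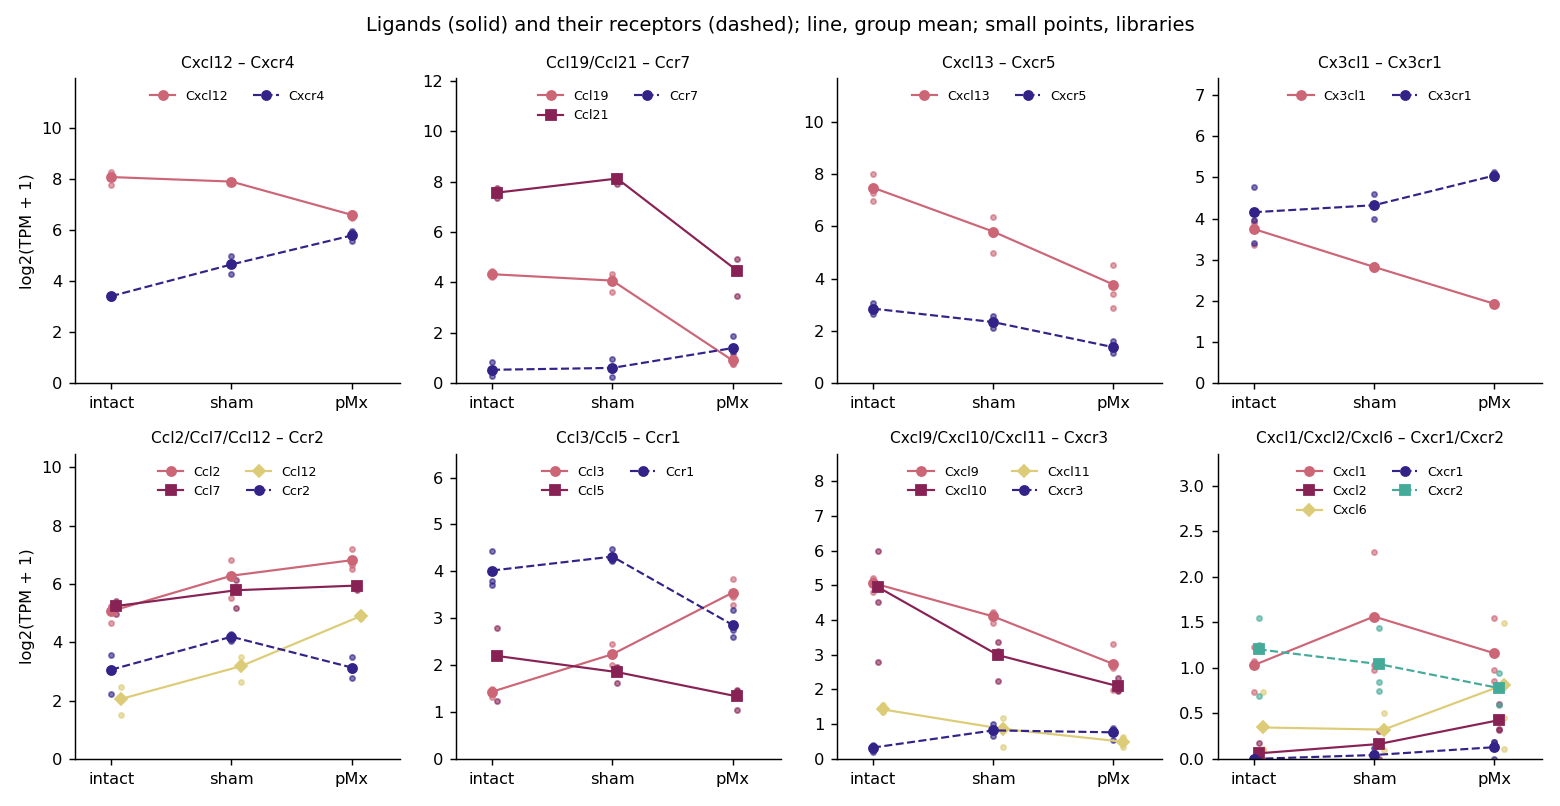
Ligands (solid lines) and receptors (dashed lines) known to pair, on log2(TPM + 1) with a separate vertical scale in each panel, for the intact, sham and pMx groups; large symbols stand for the log2 of the group mean TPM + 1 and small points for single libraries. Cxcr4 climbs from 9.66 to 54.6 TPM as Cxcl12 drops from 271 to 96.4 TPM, and Cxcl13 and Cxcr5 both drop.

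The eosinophil attractants Ccl11 and Ccl24 fell to a few TPM or less in regenerating tissue. Ccl11 (eotaxin), a ligand of Ccr3 made by fibroblasts, was at 75.6, 68.3 and 50.4 TPM in intact synovium, 16.2, 10.6 and 15.6 TPM after sham surgery and 0.91, 0.91 and 0.45 TPM in regenerating tissue. The groups did not overlap, and it was the 1 gene of the 46 called lower in both steps, with log2 fold changes of -2.12 ± 0.21 (SE) from intact to sham (adjusted p = 0.00212) and -3.10 ± 0.21 from sham to pMx (adjusted p = 3.06e-05). Against intact synovium the pMx mean was 85.6-fold lower. Ccl24 (eotaxin-2) was at 29.7, 24.1 and 16.7 TPM in intact synovium, 23.4, 22 and 23.5 TPM after sham surgery and 0.82, 1.09 and 2.24 TPM in regenerating tissue, with intact and sham overlapping (log2 difference 0.00 ± 0.24, 95% interval -0.56 to 0.56) and lower in every pMx library. Its log2 fold change from sham to pMx was -3.37 ± 0.24, a fall (adjusted p = 4.18e-05). Their receptor Ccr3 was at 0.13 TPM or less in every library.

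Markers of eosinophils, the cells that these ligands attract, and of mast cells were also read. The 4 tested eosinophil markers included 1 called lower for pMx versus sham (Alox15), against 4.85% of all genes. The list summed to 4.56 to 12.9, 3.54 to 4.05 and 0.72 to 1.71 TPM over the intact, sham and pMx libraries, with the granule protein gene Prg2 at 0 TPM in all pMx libraries. Mast cell markers were called lower in 5 of 7 for pMx versus sham, against 4.85% of all genes, with sums of 40.8 to 105, 117 to 194 and 9.67 to 13 TPM. Their part in the levels of Ccl11 and Ccl24 was not tested. Ccl22, a type 2 ligand of Ccr4, stayed between 0 and 0.69 TPM.

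The interferon-inducible ligands of Cxcr3 attract activated T cells and NK cells. Of the 3, 1 was called lower for pMx versus sham (Cxcl9) and 2 for pMx versus intact (Cxcl9 and Cxcl10). Cxcl9 was at 34.4, 36 and 27 TPM in intact synovium, 17.9, 14.2 and 16.5 TPM after sham surgery and 5.13, 8.88 and 2.93 TPM in regenerating tissue, with the 3 groups apart. It fell from sham to pMx, with a log2 fold change of -1.47 ± 0.29 (SE, adjusted p = 0.00475), while sham versus intact gave -0.96 ± 0.29 (adjusted p = 0.0667). Cxcl10 was at 21.8, 62.2 and 5.86 TPM in intact synovium, 3.77, 7.66 and 9.4 TPM after sham surgery and 2.86, 3.98 and 2.95 TPM in regenerating tissue, and its intact libraries spanned a wide range that overlapped with sham. It fell from intact to pMx (-2.34 ± 0.69 on the log2 scale, adjusted p = 0.0202), a call lost without intact replicate 1, pMx replicate 1 or pMx replicate 3. Cxcl11 had means of 1.69 ± 0.197, 0.82 ± 0.511 and 0.41 ± 0.14 TPM (SD, n = 3) and was not called. Cxcr3 had means of 0.253 ± 0.0907, 0.767 ± 0.217 and 0.7 ± 0.212 TPM, passing the adjusted p for sham versus intact (0.49 ± 0.12 on the log2 scale, adjusted p = 0.0346) without reaching the fold threshold. The 14 T and NK cell markers summed to 138 to 226, 242 to 260.2 and 172 to 218 TPM over the intact, sham and pMx libraries. Most of each sum was Cd4, with means of 162 ± 42.3, 223 ± 8 and 165 ± 20.9 TPM. Cd3g had means of 1.73 ± 0.0737, 4.79 ± 1.12 and 2.96 ± 0.321 TPM. The sums therefore follow Cd4 and are no measure of the list or of T and NK cells as a whole. The calls among them were all of higher level: Cd8b for pMx versus sham, Cd3e, Cd3g and Cd8b for sham versus intact, and Cd2, Cd8a and Cd8b for pMx versus intact. The shares of all genes called higher were 3.36%, 1.42% and 6.40%. For pMx versus sham the markers went both ways, with a median log2 fold change of -0.23. By adjusted p alone 2 were higher (Cd8a and Cd8b), against 17.7% of all genes, and 1 was lower, against 18.9%. The lower gene was Cd3g, at -0.53 ± 0.14 (adjusted p = 0.0178). These counts were 6 (6.73%) and 0 (5.97%) for sham versus intact and 5 (23.4%) and 2 (27.1%) for pMx versus intact. Cd8b had means of 0.423 ± 0.0902, 2.02 ± 0.57 and 5.55 ± 1.24 TPM. The part of these cells in the levels of the Cxcr3 ligands was not tested.

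Neutrophil attractants of the CXC class stayed near the floor of the measurement. Cxcl1, Cxcl2, Cxcl3 and Cxcl6, which act on Cxcr2, summed to 1.35 ± 0.636 TPM (SD, n = 3) in intact synovium, 2.37 ± 1.86 TPM after sham surgery and 2.61 ± 0.752 TPM in regenerating tissue. None was called by limma in any comparison, and at an unadjusted p below 0.05 there were 2 higher for pMx versus sham, 2 higher for pMx versus intact and 0 for sham versus intact. No share of all genes was computed at that threshold. The highest single value was 3.84 TPM for Cxcl1 in sham replicate 1. Cxcl3, listed at 0 TPM in all intact libraries, reached 0.42, 0.28 and 0.14 TPM after pMx. It passed the adjusted p for pMx versus sham (0.29 ± 0.09, adjusted p = 0.027) at levels below 1 TPM. On log2(TPM + 1) a gene below 1 TPM in all libraries, as Cxcl2 and Cxcl3 were, cannot pass the fold threshold. The absence of a call says nothing about such genes. With a pseudocount of 0.1 or 0.01 Cxcl3 was called higher for pMx versus sham, and Cxcl2 and Cxcl3 for pMx versus intact. Cxcr2 had means of 1.3 ± 0.658, 1.06 ± 0.561 and 0.713 ± 0.205 TPM and Cxcr1 did not exceed 0.14 TPM. The 12 neutrophil markers summed to 73.1 to 209, 54 to 88.7 and 53.4 to 69.6 TPM over the intact, sham and pMx libraries. Their calls went both ways. For sham versus intact Mmp9 was higher, against 1.42% of all genes, and S100a8, Ngp and Camp were lower, against 0.533%. For pMx versus intact Csf3r and Mmp9 were higher, against 6.40%, and S100a8, S100a9, Mpo, Ngp and Camp were lower, against 7.89%. For pMx versus sham Mpo alone was called, at a lower level, against 4.85%.

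Cx3cl1, a membrane-bound ligand that holds and attracts monocytes and macrophages, was at 13.8, 14.3 and 9.17 TPM in intact synovium, 6.05, 5.84 and 6.36 TPM after sham surgery and 2.74, 2.76 and 2.92 TPM in regenerating tissue. The groups were ordered intact, sham, pMx without overlap. It fell from intact to pMx, with a log2 fold change of -1.79 ± 0.15 (SE, adjusted p = 2.61e-05), and each single step passed the adjusted p but not the fold threshold. Its receptor Cx3cr1 was at 26.2, 14.5 and 9.62 TPM in intact synovium, 23.1, 19 and 15 TPM after sham surgery and 33.9, 31.3 and 30.8 TPM in regenerating tissue, and was not called, with log2 differences of 0.74 ± 0.30 for pMx versus sham (adjusted p = 0.0891) and 1.00 ± 0.30 for pMx versus intact (adjusted p = 0.0229), the latter just short of the fold threshold. Xcl1, the ligand of Xcr1, was at 0 TPM in 5 of 9 libraries, and Xcr1 had means of 0.293 ± 0.136, 0.76 ± 0.148 and 0.247 ± 0.0681 TPM (SD, n = 3).

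Among the 17 receptors, 2 were higher for sham versus intact (Ccr2 and Cxcr4), against 1.42% of all genes, and none lower, against 0.533%. By adjusted p alone 8 were higher, against 6.73%, and 0 lower, against 5.97%. At an unadjusted p below 0.05 in limma 8 were higher and 1 lower, and no share of all genes was computed at that threshold. For pMx versus sham 1 was higher (Cxcr4), against 3.36%, and 2 were lower (Ccr1 and Ccr2), against 4.85%. For pMx versus intact 1 was higher (Cxcr4), against 6.40%, and 2 were lower (Ccr1 and Cxcr5), against 7.89%. The median log2 fold change of the receptors was -0.02, 0.33 and 0.14 for pMx versus sham, sham versus intact and pMx versus intact, against -0.28, 0.00 and -0.24 for the ligands.

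Ccr2, the receptor of inflammatory monocytes, was at 10.9, 7.44 and 3.66 TPM in intact synovium, 18, 15.4 and 18.3 TPM after sham surgery and 7.23, 10.3 and 5.78 TPM in regenerating tissue. Sham was above both other groups, while intact and pMx overlapped. It rose by 1.23 ± 0.32 (SE) on the log2 scale from intact to sham (adjusted p = 0.0416) and fell from sham to pMx, with -1.08 ± 0.32 (adjusted p = 0.0285). Both calls were weak. The rise was lost under the omission of any 1 library other than intact replicate 1, with a replicate block and on the 6 libraries of the comparison, and the fall was lost without any 1 of sham replicates 1 to 3, pMx replicate 1 or pMx replicate 3. The Ccr2 ligands Ccl2, Ccl7 and Ccl12, described above, had their highest means in the pMx group.

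Ccr1, a receptor of macrophage inflammatory proteins, was at 20.6, 12.8 and 12.1 TPM in intact synovium, 21.2, 17.7 and 17.8 TPM after sham surgery and 5.08, 5.68 and 7.98 TPM in regenerating tissue, with intact and sham overlapping and pMx below both. Its log2 fold change for pMx versus sham was -1.47 ± 0.21 (SE, adjusted p = 0.000967), a call of lower level. From intact to pMx it was -1.14 ± 0.21 (adjusted p = 0.00222), also a call of lower level, which was lost without intact replicate 1.

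Other receptors were low. Cxcr6 had means of 0.923 ± 0.416, 2.67 ± 0.426 and 1.54 ± 0.235 TPM (SD, n = 3) and Ccr6 had 0.66 ± 0.225, 1.57 ± 0.217 and 1.72 ± 0.35 TPM, both past the adjusted p for sham versus intact (adjusted p = 0.0107 and 0.021) without reaching the fold threshold. Ccr4, Ccr9 and Ccr10 stayed at 0.67 TPM or below in every library.

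The 14 markers of macrophages and monocytes, cells known to carry several of these receptors, summed to 3009.7 to 5080.3 TPM over the intact libraries, 7572 to 8360.5 TPM over the sham libraries and 8281 to 8676 TPM over the pMx libraries. For sham versus intact 1 was called higher (Lyz2), against 1.42% of all genes. For pMx versus sham 1 was called lower, against 4.85%. It was Cd163, a marker of resident macrophages, at 27.8, 26.3 and 27.7 TPM in sham and 5.03, 6.38 and 3.75 TPM in pMx. For pMx versus intact Cd68, Itgam and Lyz2 were called higher, against 6.40%, and Cd163 lower, against 7.89%. The median log2 fold change of the 14 was -0.03 for pMx versus sham and 0.63 for sham versus intact. By adjusted p alone 3 of the 14 were lower for pMx versus sham (Cd163, C1qb and C1qc), against 18.9% of all genes. At that threshold 1 was higher (Cd68), against 17.7%. For sham versus intact 6 were higher, against 6.73%, and 0 lower, against 5.97%. For pMx versus intact 9 were higher, against 23.4%, and 1 was lower, against 27.1%. The part of macrophage number in the levels of Ccl6, Ccl9, Ccl12, Ccr1 and Ccr2 was not tested.

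**Figure D5:**
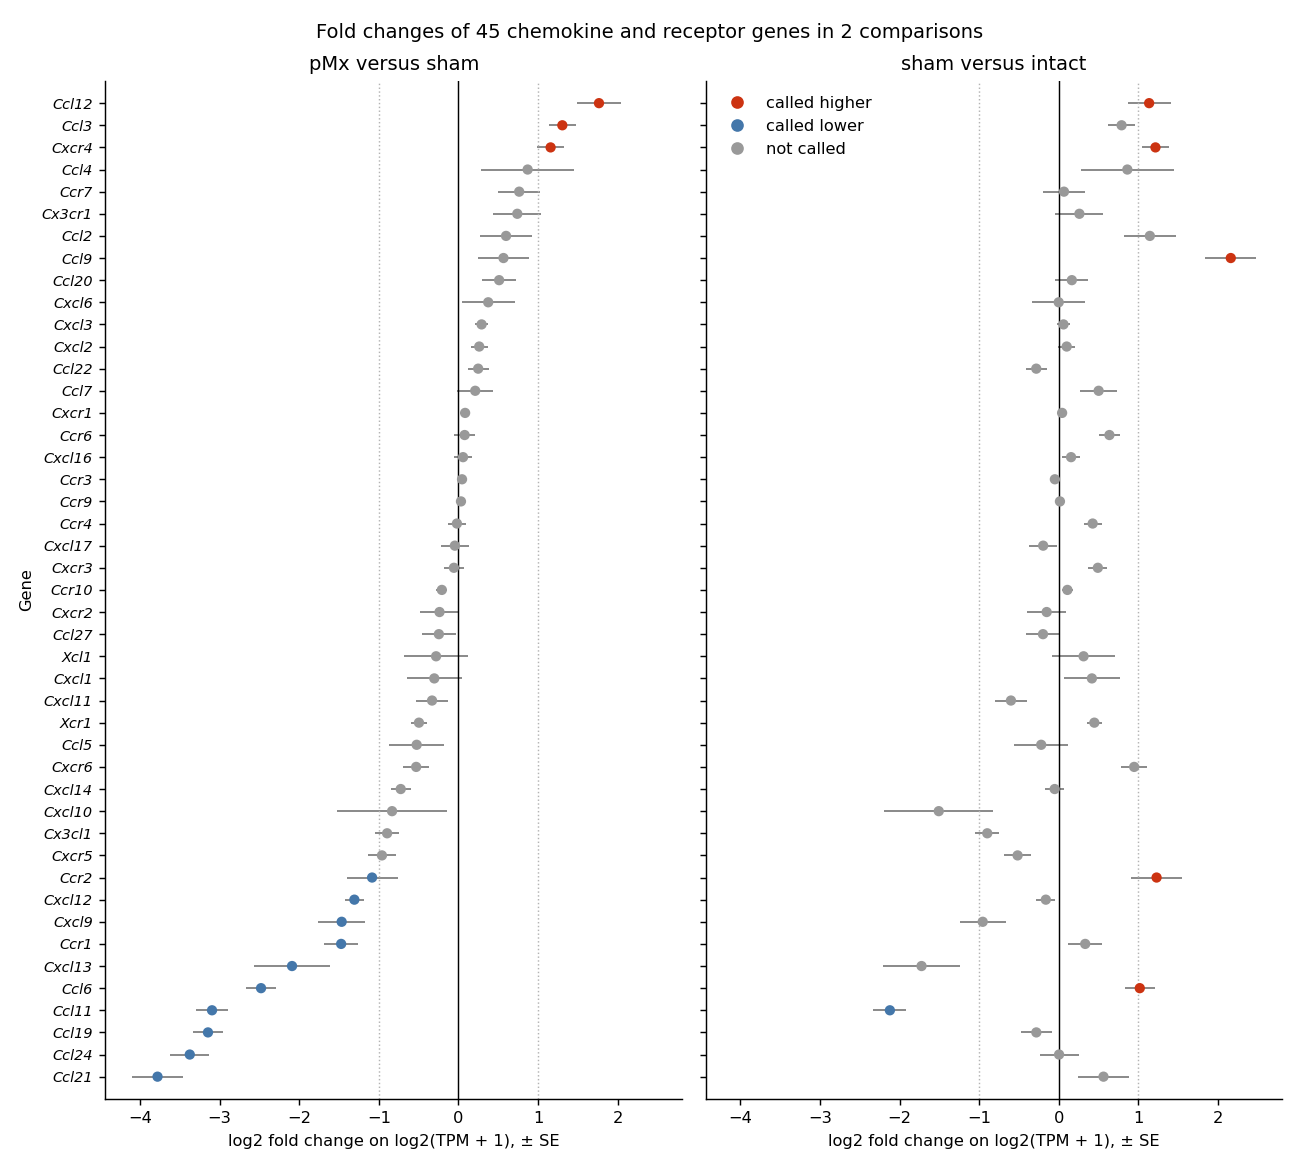
Log2 fold change on log2(TPM + 1), with its standard error as a bar, of 45 of the 46 genes for pMx versus sham (left) and sham versus intact (right), ordered by the left panel; red points mark higher DEGs, blue points lower DEGs and grey points genes not called. Ccl6 and Ccr2 are blue at the left and red at the right, Ccl12 and Cxcr4 are red in both, and Ccl11 is blue in both; the sham libraries serve in both panels with opposite sign.

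Read across both steps, 2 genes rose in both (Ccl12 and Cxcr4), 2 rose from intact to sham and fell from sham to pMx (Ccl6 and Ccr2), 1 fell in both (Ccl11), 1 was called only higher from intact to sham (Ccl9), 1 only higher from sham to pMx (Ccl3) and 7 only lower from sham to pMx. The sham libraries enter both steps with opposite sign. The count of 5 higher genes for sham versus intact rested on single libraries: it was 2 without intact replicate 2 or intact replicate 3, and 3 without sham replicate 1, sham replicate 2 or any 1 of the 3 pMx libraries. Ccl9 and Cxcr4 were called in all of these. The count of 1 lower gene was 4 without intact replicate 3, where Cx3cl1, Cxcl10 and Cxcl13 joined Ccl11, and 2 without sham replicate 3 or pMx replicate 2.

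Atypical chemokine receptors scavenge or transport ligands. Of 6 genes, 2 were called lower for pMx versus sham, against 4.85% of all genes, with a median log2 fold change of -0.86. For pMx versus intact 3 were called lower, against 7.89%, and by adjusted p alone 5 were lower, against 27.1%. For pMx versus sham by adjusted p alone 5 were lower, against 18.9%, and 1 higher, against 17.7%. The higher gene was Pitpnm3, with a log2 difference of 0.45 ± 0.15 (adjusted p = 0.0457). Ackr1, which transports inflammatory chemokines across venules, was at 45.1, 41.5 and 36.3 TPM in intact synovium, 33.9, 34.8 and 31.7 TPM after sham surgery and 7.3, 8.36 and 12.7 TPM in regenerating tissue, and fell from sham to pMx (log2 fold change -1.76 ± 0.17 (SE), adjusted p = 0.000142). Ackr4, the scavenger of Ccl19 and Ccl21, was at 24.2, 27.4 and 24.6 TPM in intact synovium, 27.7, 19.98 and 32.9 TPM after sham surgery and 7.55, 6.41 and 7.88 TPM in regenerating tissue, and its log2 fold change was -1.73 ± 0.16 (adjusted p = 0.000131). In both genes all pMx libraries were below those of the other groups. Ackr2, which degrades inflammatory CC chemokines, was called lower for pMx versus intact (-1.35 ± 0.20 on the log2 scale, adjusted p = 0.00052). Ackr3, which binds Cxcl12, had means of 161 ± 6.28, 166 ± 14 and 106 ± 1.62 TPM (SD, n = 3) and was not called.

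A list made for enzymes and binding proteins that cut or hold chemokines gave more calls of higher than of lower level. The list also holds a gene of a secreted phospholipase, Pla2g7, which is counted among the higher genes in all 3 comparisons. The shares of all genes called higher were 3.36% for pMx versus sham, 1.42% for sham versus intact and 6.40% for pMx versus intact. Of 12 genes tested, 4 were higher and 1 lower for pMx versus sham (median log2 fold change 0.60), 6 were higher for sham versus intact (median 1.02), and 6 were higher and 1 lower for pMx versus intact (median 0.89). Mmp12, a macrophage metalloproteinase, had means of 0.563 ± 0.728, 27.6 ± 18.6 and 140.1 ± 19.3 TPM (SD, n = 3), Mmp14 had 209 ± 44.7, 574 ± 126 and 1554 ± 101 TPM, and Mmp2 had 531 ± 117, 1165 ± 145 and 1998 ± 133 TPM. Mmp12 and Mmp14 were called higher in both steps, and Mmp2 from intact to sham. Mmp9, also called from intact to sham, had means of 0.76 ± 0.485, 14.3 ± 15.7 and 36.9 ± 8.7 TPM. Tnfaip6, whose protein binds chemokines, rose from sham to pMx with means of 32.1 ± 7.17 and 154 ± 10.1 TPM, and Pla2g7, a secreted phospholipase, with 6.34 ± 2.98 and 22.7 ± 3.34 TPM. Dpp4, which trims the ends of Cxcl12 and other chemokines, was at 2.3, 3.91 and 2.43 TPM in intact synovium, 8.13, 6.98 and 7.86 TPM after sham surgery and 0.86, 0.66 and 0.72 TPM in regenerating tissue. Like Ccl6 and Ccr2, it rose from intact to sham (1.18 ± 0.15 on the log2 scale, adjusted p = 0.00499) and fell from sham to pMx (-2.31 ± 0.15, adjusted p = 3.1e-05).

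Genes that induce chemokines and genes that hold leukocytes on vessels were also read. Of 12 inducing cytokine genes tested, 1 was lower for pMx versus sham, against 4.85% of all genes, and 0 were higher, against 3.36%. That gene was Il33, an alarmin of stromal cells, with means of 129 ± 15.4, 108 ± 6.97 and 20.9 ± 4.91 TPM (SD, n = 3) and a log2 change of -2.35 ± 0.17 (adjusted p = 3.84e-05). Of 15 adhesion genes, 1 was lower for pMx versus sham and 0 were higher. The lower gene was Vcam1, with means of 167 ± 15.2, 115 ± 13.1 and 34.8 ± 7.16 TPM. For pMx versus intact Selplg and Itgam were higher, against 6.40% of all genes, and Vcam1 was lower, against 7.89%. For sham versus intact limma called 0 genes of either list, against 1.42% of all genes higher and 0.533% lower. At an unadjusted p below 0.05 in limma there were 5 higher and 1 lower cytokine genes and 5 higher and 3 lower adhesion genes. No share of all genes was computed at that threshold.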

How the data were processed

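RNA of 9 libraries (3 intact, 3 sham, 3 pMx) was sequenced by the authors after oligo-dT selection and strand-marked library construction. The submitters' processing notes name HISAT2 2.0.4 and the build mRatBN7.2. The counting tool and annotation are not given in the sources used here. The authors deposited 1 table of TPM values with 17602 genes, rounded to 2 decimals. TPM keeps no read depth, so its precision is unknown, and a level is relative to all other transcripts of its library.

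The values were tested as log2(TPM + 1) in limma 3.58.1 (R 4.3.3), with 1 mean per group over 9 libraries, a trended prior variance and Benjamini-Hochberg adjustment over the 16512 genes above 0 TPM in 3 or more libraries. The study's thresholds were used (adjusted p below 0.05, log2 fold change above 1 in size). The fit was tested on simulated data. Values in every library are given for DEGs and the 5 most abundant members, other members by means, ranges and counts. The members and lists were chosen with earlier results of these data known. Promoters and gene order are from RefSeq on GRCr8, matched by gene identifier (46 of 46 in the gene table), and no coordinates were carried between builds. Cxcl5, Ccl1, Ccl26, Ccl28, Cpn1, Il4, Il13, Ifng and Ifnb1 and RNA quality were not analysed here, and 1 of the 46 members is counted but not reported here. Figures were drawn with Matplotlib 3.10.9 (Python 3.11.15, pandas 2.3.3).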

Additional observations from a re-analysis of the deposited data

How the results depend on the processing

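Of 37 calls over the 3 comparisons, 29 were made under all 12 alternatives and all 9 omissions of a library, 8 were lost in at least 1, and none changed sign. Adjusted p alone gave 16 lower genes for pMx versus sham, 12 higher and 2 lower for sham versus intact, and 16 higher for pMx versus intact. For sham versus intact, higher genes numbered 11 with a pseudocount of 0.1, 10 with 0.01, 3 when fitted on its 6 libraries alone and 2 at adjusted p below 0.01. Lower genes there numbered 2 with a pseudocount of 0.01, a minimum mean of 1 TPM, median-of-ratios rescaling or quantile normalization. Higher genes for pMx versus intact numbered 14 with a pseudocount of 0.1 or 0.01. Leaving out 1 library gave 2 to 7 higher and 1 to 4 lower genes for sham versus intact (all libraries but intact replicate 1 and sham replicate 3 moved the first by over 1.5 times). With the replicate number as a block the counts were 3 and 10 for pMx versus sham, 4 (without Ccr2) and 1 for sham versus intact, and 6 and 12 for pMx versus intact. The cause of these changes was not tested. No source used here says whether libraries of the same number belong together. Correlations of same-numbered deviations were 0.0346, 0.368 and 0.485 for pMx with sham, 0.00161, -0.399 and -0.493 for sham with intact, and -0.378, -0.439 and -0.664 for pMx with intact. They were not set against those of differently numbered libraries, so they cannot decide whether the libraries are paired. No rescaling moved the median of all genes by over 0.1 on the log2 scale, and depth is unknown, so low genes carry no interval for counting error.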

Other observations

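Chemokine-like genes that carry other symbols were read beside the 46. Of Pf4, Ppbp, Cklf, Cmtm3 and Mif, 4 were tested, and 1 was called, Cmtm3 (a member of the chemokine-like factor family), higher for pMx versus intact with means of 66.7 ± 7.48, 106 ± 5.25 and 150.1 ± 5.84 TPM (SD, n = 3) in the intact, sham and pMx groups. Pf4, a CXC chemokine of platelets and macrophages, stood at 104, 97.9 and 76.8 TPM in intact synovium, 224, 151 and 153 TPM after sham surgery and 136, 136 and 137 TPM in regenerating tissue and was not called; with a log2 difference of 0.90 ± 0.16 (SE) it passed the adjusted p for sham versus intact (0.0122).

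Downstream of the receptors, the genes that carry or end their signal were read too. Of 19 tested, none was called for pMx versus sham by limma, against 3.36% of all genes higher and 4.85% lower. At an unadjusted p below 0.05, 2 were higher and 5 lower, and no share of all genes was computed at that threshold. By adjusted p alone 5 were lower, against 18.9% of all genes, and 0 higher, against 17.7%. For sham versus intact 1 was higher, against 1.42%, and for pMx versus intact 2 were higher, against 6.40%. Rgs1, a brake on chemokine receptor signaling in leukocytes, was at 2.58, 1.47 and 2.42 TPM in intact synovium, 6.29, 6.46 and 4.22 TPM after sham surgery and 7.78, 8.18 and 11.7 TPM in regenerating tissue. It was called higher for sham versus intact (1.08 ± 0.21 on the log2 scale, adjusted p = 0.0179) and for pMx versus intact (1.69 ± 0.21, adjusted p = 0.000245). Plcb2, a phospholipase activated by these receptors, was called higher for pMx versus intact, with means of 2.54 ± 0.344 and 7.02 ± 1.04 TPM (SD, n = 3). Among 12 genes of the NF-kB pathway, 1 was called for pMx versus sham, Nfkbiz, which was higher (1.03 ± 0.16, adjusted p = 0.0013), against 3.36% of all genes. For pMx versus intact Nfkbiz was again called higher, against 6.40%. Nfkbia, an inhibitor of NF-kB, was lower there (-1.14 ± 0.08, adjusted p = 1.31e-05), against 7.89%. By adjusted p alone 2 were higher (17.7% of all genes) and 1 lower (18.9%) for pMx versus sham. For pMx versus intact 6 were higher (23.4%) and 1 lower (27.1%).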
